A study of Homo sapiens with 2 samples.

Results

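CHD4 occupied 939 regions on the short arm of chromosome 5 in 501Mel cells, out of 60126 CHD4 peaks in the genome (1.56%). The members were chosen by their position, as the peaks of the deposited list that end at or before base 46400000 of chromosome 5 on hg19. The 2186 peaks that start at or after base 49400000 of the same chromosome, on its long arm, served for comparison, and no peak of the chromosome fell between these positions. The 2 libraries of the series were 1 CHD4 ChIP and 1 input, both made from chromatin of 501Mel, an established human melanoma cell line, fixed with 0.4% paraformaldehyde. The labels name no treatment or gene perturbation for either library. No replicates were made, so that no spread between samples can be given and no test between conditions was possible. Peaks were selected on the ChIP signal itself, and therefore their number, fold enrichment, length and q values are described without a test. Fold enrichment is the ratio of the ChIP over the background as computed by the authors' peak caller, and the q value is its p value adjusted over the genome. In the broad mode used, these values are means over the positions of a region, so that parts of a region can exceed them. The peak list holds no read counts, so the depth behind each peak is unknown. All intervals in parentheses are at 95% and cover counting error only, and peaks are not replicates.

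CHD4 is the ATP-dependent motor of NuRD, a complex that moves nucleosomes and removes acetyl groups from histones, and that acts as a co-repressor at many genes. In ChIP-seq, CHD4 is commonly found over accessible chromatin, at gene starts and at enhancers, and it reaches DNA through other proteins rather than through a motif of its own. The short arm of chromosome 5 holds long gene deserts with the type II cadherin genes, broad neuronal genes such as *SEMA5A* and *CTNND2*, the telomerase gene *TERT*, and *SLC45A2*, which encodes a melanosome transporter needed for pigment synthesis.

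The sequences under the 5 peaks of highest fold enrichment are shown first, since 4 of them carried short repeated words. Each line gives 160 bases of the GRCh37 plus strand within the peak, and the capitals mark the most frequent 6-base word where it occurred at least 3 times. Intergenic here means outside protein-coding genes and canonical transcripts.
Intergenic, fold enrichment 6.55, chr5:983771-983930: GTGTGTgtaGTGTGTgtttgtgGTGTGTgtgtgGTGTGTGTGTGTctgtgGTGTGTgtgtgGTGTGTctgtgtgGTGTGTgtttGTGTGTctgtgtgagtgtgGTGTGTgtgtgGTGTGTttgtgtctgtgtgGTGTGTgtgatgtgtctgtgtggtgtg
Upstream of *SLC45A2*, fold enrichment 5.56, chr5:33985371-33985530: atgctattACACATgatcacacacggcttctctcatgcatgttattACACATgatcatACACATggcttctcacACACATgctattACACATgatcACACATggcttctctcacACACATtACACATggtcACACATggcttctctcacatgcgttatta
Intron 8 of *MTRR*, fold enrichment 4.87, chr5:7887460-7887619: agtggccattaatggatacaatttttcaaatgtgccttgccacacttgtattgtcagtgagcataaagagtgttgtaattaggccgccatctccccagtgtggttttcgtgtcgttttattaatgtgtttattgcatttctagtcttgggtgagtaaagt
Intergenic, fold enrichment 4.46, chr5:945071-945230: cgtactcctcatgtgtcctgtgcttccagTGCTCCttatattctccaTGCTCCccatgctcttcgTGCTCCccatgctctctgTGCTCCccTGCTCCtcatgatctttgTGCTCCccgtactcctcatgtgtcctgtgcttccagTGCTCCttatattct
Intron 7 of *CLPTM1L*, fold enrichment 4.41, chr5:1333071-1333230: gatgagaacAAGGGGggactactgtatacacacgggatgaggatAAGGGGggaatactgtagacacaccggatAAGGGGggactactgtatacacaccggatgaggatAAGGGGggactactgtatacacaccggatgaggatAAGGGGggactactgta
In the strongest peak the word GTGTGT occurred 12 times in the 160 bases. The *SLC45A2* peak held ACACAT 9 times, the second intergenic peak TGCTCC 7 times and the *CLPTM1L* peak AAGGGG 5 times. No word was capitalised in the *MTRR* peak.

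Other strong peaks held matches to patterns that include the motifs of transcription factors active in melanoma cells. The capitals below mark matches on either strand to TGANTCA, to TCANGTGA or to the consensus of CTCF. TGANTCA includes the sites of AP-1, and TCANGTGA includes the M-box bound by the melanocyte factor MITF. N stands for any base, so a match labelled AP-1 or M-box fits the pattern and need not be a site of that factor. The peak of the M-box and AP-1 line, chr5:855510-858791, also held a tandem repeat, described below.
AP-1, peak near *DAB2*, chr5:39436982-39437028: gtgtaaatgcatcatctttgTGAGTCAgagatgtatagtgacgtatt
M-box and AP-1, fold enrichment 4.01, chr5:857193-857240: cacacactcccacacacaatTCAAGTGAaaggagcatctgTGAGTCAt
CTCF, peak in *ZNF622*, chr5:16456503-16456554: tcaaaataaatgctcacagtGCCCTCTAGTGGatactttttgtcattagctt
CTCF, peak in *BASP1*, chr5:17189684-17189735: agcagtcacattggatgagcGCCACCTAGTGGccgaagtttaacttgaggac

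The short arm held more CHD4 peaks per Mb than the long arm over the whole list, and fewer gene starts per Mb. The 46.35 Mb of sequenced bases on the short arm carried 20.3 peaks per Mb (Poisson interval 19.0 to 21.6), against 16.6 (15.9 to 17.4) over the 131.3 Mb of the long arm, a ratio of 1.22. With q values of at most 0.01 the ratio was 1.07, and its interval of 0.955 to 1.2 included equality. The ratio was 1.11 without *SEMA5A*, and among peaks that passed a −log10 q of 5 it turned to 0.782, with an interval of 0.42 to 1.38. These intervals treat peaks as independent, although peaks clustered along the arms, so that they are too narrow. Annotated transcription starts numbered 45.6 per Mb on the short arm and 64.3 on the long arm. Peaks per start were thus 0.445 and 0.259, a ratio of 1.72, and peaks per start of a protein-coding gene were 0.904 and 0.397, a ratio of 2.28. Of 41 arms of chromosomes 1 to 22 and X, the short arm of chromosome 5 ranked 21 in peaks per Mb, 3 in peaks per start and 1 in peaks per start of a protein-coding gene. Peaks covered 23.2 bp per kb of the short arm and 15.03 bp per kb of the long arm, a ratio of 1.55.

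Peaks of the short arm had a lower fold enrichment than those of the long arm and were longer. The median fold enrichment was 2.82 on the short arm (quartiles 2.62 and 3.13, range 2.25 to 6.55), 3.19 on the long arm (quartiles 2.95 and 3.52, range 2.30 to 6.29) and 3.09 over the whole list. This was the lowest median of the 41 arms. A fold enrichment below the long arm's median was found for 738 of the 939 peaks (78.6%). The median length was 674 bp on the short arm against 606.5 bp on the long arm and 613 bp over the list. The mean length of 1147 bp was the highest of the 41 arms, and was 903 bp on the long arm.

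Thresholds on the peak values selected different shares of the members. Most members did not reach a q value of 0.01, read from the mean −log10 q of the region. This cut was reached by 428 short-arm peaks (45.6%, Wilson interval 42.4 to 48.8), by 51.9% of the long-arm peaks and by 48.5% of all peaks. A −log10 q of at least 5 was reached by 16 short-arm peaks (1.70%, 1.05 to 2.75), against 2.65% on the long arm and 2.23% over the list. Only 14 short-arm peaks had a fold enrichment of at least 4 (1.49%, 0.89 to 2.49), whereas 170 long-arm peaks did so (7.78%, 6.73 to 8.97), with 5.51% over the list. Peaks of at least 3000 bp made up a larger share of the short arm, with 74 of them (7.88%, 6.32 to 9.78) against 79 on the long arm (3.61%, 2.91 to 4.48) and 4.23% over the list. These comparisons come from the values that selected the peaks and are descriptions.

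The estimated background level of the peaks differed between the arms by a larger factor than fold enrichment or length did. It was estimated for each peak as the level at which the fold enrichment, with 1 added to both levels, has the Poisson p value of the list, and it is in the peak caller's pileup units. The level is thus computed from the fold enrichment and the p value, and is not a separate measurement. At a like p value, a lower fold enrichment gives a higher level by construction. The median −log10 p was 4.26 on the short arm and 4.44 on the long arm. The control of the call is not stated, so that this level reads as input only if the input served as control. Its median was 4.29 on the short arm (quartiles 3.84 and 4.71) and 2.65 on the long arm (quartiles 2.53 and 2.83), a ratio of 1.62, while the whole list had 2.88. The lowest level of any peak of the list was 2.47, so that most long-arm levels lay close to this minimum. The short arm had the highest median of the 41 arms, 1.17 times that of the next arm, 22q, at 3.66. Only 9 long-arm peaks (0.412%) lay above the lower quartile of the short arm, and 2 short-arm peaks (0.213%) lay below the long arm's median. The ChIP level derived in the same way had a median of 13.9 on the short arm and 10.8 on the long arm, a ratio of 1.28. The short-arm median was the highest of the 41 arms, so that the higher ChIP level came with a lower ratio to the background. The difference in background was present at every length. Among peaks of at most 300 bp the median background was 4.16 on the short arm and 2.58 on the long arm, and among peaks over 3000 bp it was 4.45 and 2.82. The part of the background level in the lower fold enrichment and the greater length was not tested.

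**Figure D1:**
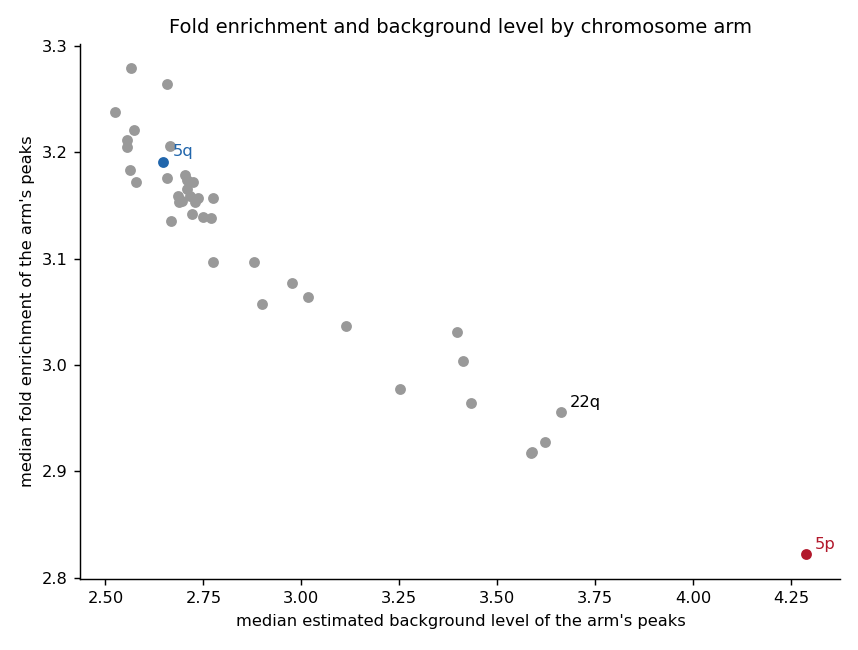
Each point is 1 of 41 chromosome arms, with the median estimated background level of its CHD4 peaks (peak caller's pileup units) on the x axis and their median fold enrichment (ratio) on the y axis. The short arm of chromosome 5 (5p, red) has the highest background, 4.29, and the lowest fold enrichment, 2.82, while the long arm (5q, blue) lies at 2.65 and 3.19. The background level is computed from the fold enrichment and p value of each peak, so the axes are not independent.

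The background was also compared along the chromosome. The last peak of the short arm, chr5:45900301-45900451, had a fold enrichment of 3.04 and a background of 3.28, and the one before it, chr5:45799461-45800110, had 3.02 and 4.07. The first peak beyond the centromere, chr5:49439975-49440212, had a fold enrichment of 2.30 and a background of 8.74, and the next, chr5:49998217-49998693, had 2.88 and 2.48. Over 1-Mb bins with at least 5 peaks, the median background ranged from 3.21 to 5.38 in 33 short-arm bins and from 2.50 to 2.82 in 111 long-arm bins. The ranges did not overlap, with the long-arm bins close to 2.47, the lowest level of any peak of the list. However, the first long-arm bin, left out with 2 peaks, had a median of 5.61. The median fold enrichment of these bins ranged from 2.60 to 3.04 on the short arm and from 2.91 to 3.73 on the long arm, with a small overlap.

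Along the short arm, peaks gathered in a few dense bins separated by sparse stretches. Of 46 bins, 1 had no peak and 14 had at most 5 (30.4%), while on the long arm 23 of 132 bins had at most 5 (17.4%). The median was 13 peaks per bin on both arms. The densest short-arm bin held 97 peaks and the densest long-arm bin 59, and the 5 densest short-arm bins together held 323 peaks (34.4% of the arm). The ratio of variance to mean over bins was 22.4 on the short arm and 10.7 on the long arm. Across the 46 short-arm bins the number of peaks per Mb and of transcription starts per Mb had a Spearman correlation of 0.576 and a Pearson correlation of 0.435, and across the 132 long-arm bins 0.338 and 0.253. For the GC content of the bins the Spearman correlation was 0.556 on the short arm and 0.359 on the long arm. Bins are stretches of 1 library and not independent samples, and starts and GC content share the same bins.

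**Figure D2:**
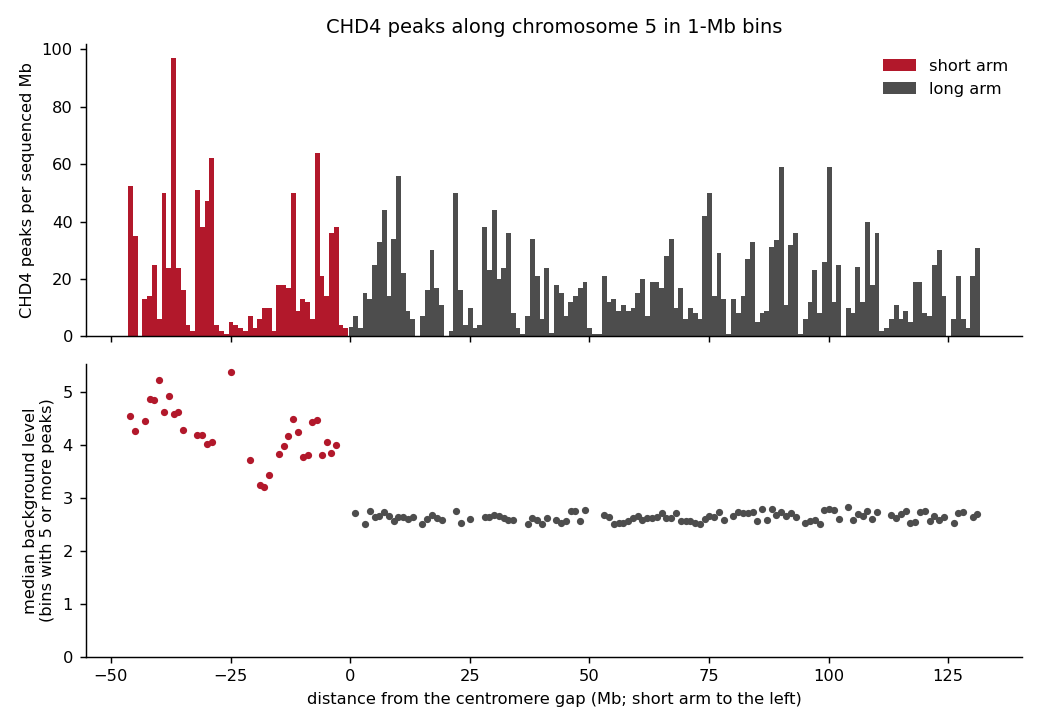
The upper panel shows CHD4 peaks per sequenced Mb in 1-Mb bins of chromosome 5, by distance from the centromere gap in Mb, with the short arm to the left in red and the long arm to the right in grey. The lower panel shows the median estimated background level of bins with 5 or more peaks (pileup units), which lies between 3.21 and 5.38 on the short arm and between 2.50 and 2.82 on the long arm. The lowest level of any peak of the list is 2.47.

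In blocks of 5 Mb counted from the telomere, the block from 5 to 10 Mb was the densest, with 202 peaks that covered 6.43% of its bases. The block from 15 to 20 Mb held 150 peaks. The block from 20 to 25 Mb, with *CDH12* and *CDH10*, held 15 peaks, and the block from 25 to 30 Mb, with *CDH9*, held 36. The median background was 4.67 in the block from 5 to 10 Mb and 3.33 in that from 25 to 30 Mb. Across the 33 short-arm bins with at least 5 peaks, the Spearman correlation of the median background with peaks per Mb was 0.218.

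The longest stretches without a CHD4 peak lay around an Iroquois gene and type II cadherin genes. The longest, chr5:1929908-3091738, spanned 1161831 bp and contained *IRX2*, a homeobox gene of development. The next, chr5:18746744-19903426, spanned 1156683 bp and reached into *CDH18*, and chr5:22529185-23506715, with 977531 bp, reached into *CDH12* and *PRDM9*. No protein-coding gene lay wholly inside either of these. In all, 20 gaps of at least 500 kb added up to 15.7 Mb of the arm. The long arm, which is longer, had 41 such gaps that added up to 39.3 Mb. Over all gaps between neighbouring peaks, the median was 7119 bp on the short arm and 12512 bp on the long arm. Gaps at or under 10 kb made up 56.1% and 46.1%.

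*SEMA5A*, which encodes a transmembrane semaphorin that guides axons, had more peaks than any other protein-coding gene. It lies on the minus strand at chr5:9035145-9546187 and its canonical transcript has 23 exons. It held 94 CHD4 peaks, which covered 179073 bp or 35.0% of the gene. Among 20163 protein-coding genes it ranked 1 in the number of peaks and in the bases covered. Among the 3666 genes of at least 100 kb it ranked 4 in peaks per 100 kb, with 18.4, and 1 in the share of bases covered. The gene thus held 10.0% of the short-arm peaks and 16.6% of the bases they covered. The gene was singled out from these values, so that the ranks describe it and test nothing.

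The *SEMA5A* peaks stood out by their length and not by their fold enrichment. Their median length was 872.5 bp against 657 bp for the other 845 short-arm peaks, and 13 of them reached 3000 bp. Their median fold enrichment was 2.78 (range 2.31 to 3.75) against 2.82 for the others, and the median background was 4.56 against 4.25. A q value of at most 0.01 was reached by 45 of the 94 peaks and a −log10 q of at least 5 by 0. None lay within 1000 bp of the annotated gene start. Intron 1 held 17 peaks that covered 37.6% of its bases, intron 2 held 12 that covered 50.8%, and intron 3 held 11 that covered 62.2%. Intron 18 was covered to 94.8% by 3 peaks, whereas intron 16 was covered to 11.7%. The longest peak of the genome-wide list lay here, chr5:9433743-9458798, with 25056 bp and a fold enrichment of 3.48. It spanned 20834 bp of intron 1, the whole of exon 2 (97 bp) and 4125 bp of intron 2.

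**Figure D3:**
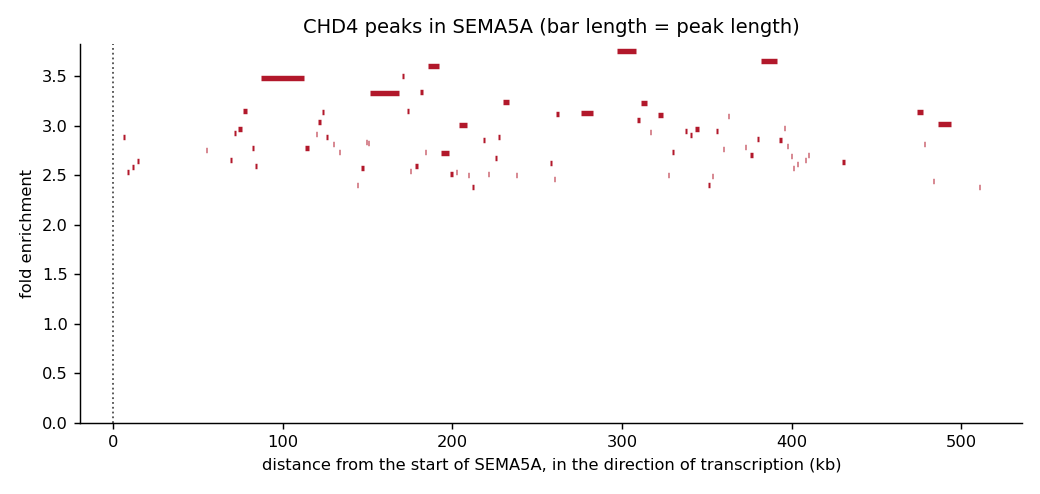
Each bar is 1 of the 94 CHD4 peaks in *SEMA5A*, placed by its distance from the gene start in the direction of transcription (kb, x axis) and by its fold enrichment (ratio, y axis), with the bar as long as the peak. The peaks spread over the introns between fold enrichments of 2.31 and 3.75, and the longest bar, about 100 kb from the start, is the peak of 25056 bp.

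Of the 5 longest short-arm peaks, 4 lay in *SEMA5A*. The second, chr5:9377408-9394622, had 17215 bp and a fold enrichment of 3.33 and also overlapped the long non-coding gene ENSG00000248537. The fourth, chr5:9237976-9249137, had 11162 bp in intron 5 and exon 6 and the highest fold enrichment of the gene, 3.75. The fifth, chr5:9154801-9163975, had 9175 bp in intron 11 and exon 12. The remaining one, chr5:8826959-8840237, had 13279 bp and a fold enrichment of 3.33, and covered the start of the long non-coding gene LINC02199.

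Several other long genes carried many peaks. *ADCY2*, an adenylyl cyclase, held 42 peaks over 433944 bp (12.2% covered), which ranked 21 among all protein-coding genes. *TRIO*, a guanine nucleotide exchange factor, held 37 (12.6% covered) and *FBXL7*, an F-box protein of ubiquitin ligases, held 35 (8.66%). *MYO10*, a myosin of filopodia, held 24 (7.62%), *BASP1*, a membrane-bound protein of nerve growth cones, held 23 (12.4%), and *GHR*, the growth hormone receptor, held 18 (2.93%). *FYB1*, an adaptor of immune cells, and *DAB2*, an endocytic adaptor, held 16 each, with 10.8% and 24.3% covered. *TTC23L* held 11 peaks that covered 38.5% of its 61679 bp. Dense runs of peaks, with neighbours at most 10 kb apart, were found in several of these genes. The run chr5:9308244-9499128 in *SEMA5A* held 45 peaks, the run chr5:14108884-14209783 at *TRIO* held 24, and the run chr5:39417880-39503086 at *DAB2* held 19. A run of 17 peaks, chr5:16965111-17037780, overlapped no protein-coding gene and was covered to 50.5%.

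A larger share of protein-coding genes held a CHD4 peak on the short arm than on the long arm. A peak lay in the gene or the 2000 bp before its start for 109 of 154 genes (70.8%, 63.2 to 77.4), against 53.4% of 730 long-arm genes and 58.3% of all protein-coding genes. A peak lay within 1000 bp of the start for 64 genes (41.6%, 34.1 to 49.5), against 23.8% on the long arm and 33.8% of all. At least 10 peaks were found in 13 genes (8.44%, 5 to 13.9), against 3.70% on the long arm and 4.26% of all. Genes with a peak were longer, with a median of 61679 bp against 34492 bp without one, and the arm medians were 49647.5 bp and 43003.5 bp. The short-arm genes without a peak included a cluster of short genes at chr5:17491076-17655958, many of them 597 bp long. The shares and medians were not computed without this cluster, and how well reads align there was not tested. The part of gene length in these shares was not tested.

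The lists of genes below were read against the shares over the 154 genes of the arm, 70.8% with a peak and 41.6% with one at the start. Over the 12 lists, 47 of 63 genes had a peak (74.6%) and 24 had one at the start (38.1%), close to the arm as a whole, and no list was tested. Of 8 genes linked to growth and cancer, 7 had a peak and 5 had one at the start, and the median of their strongest fold enrichments was 3.69, beside 3.29 over the 109 genes of the arm with a peak. *TERT*, the catalytic subunit of telomerase, held 1 peak of 1891 bp, chr5:1290231-1292121, with a fold enrichment of 3.35 and its centre 4007 bp inside the gene. The strongest peak of its neighbour *CLPTM1L* had 4.41. *GOLPH3*, a Golgi protein, had 4.06, *RICTOR*, a subunit of an mTOR complex, 3.69, *DROSHA*, the nuclease that starts microRNA processing, 3.38, and *NIPBL*, the cohesin loader, 3.27. The *GOLPH3* and *CLPTM1L* peaks lay on tandem repeats, described below. *SKP2*, an F-box protein that promotes the cell cycle, had no peak.

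*SLC45A2* was the pigment gene listed for the arm and had the second strongest peak. Located on the minus strand at chr5:33944728-33984798, it held 3 peaks, of which chr5:33984317-33986938 covered 482 of the 495 bp of exon 1 and reached upstream with 2622 bp in all. Its fold enrichment was 5.56, and its −log10 q was 11.1. The same peak covered 669 bp of exon 5, the last exon, of the neighbouring *AMACR*, so that its fold enrichment counts for both genes. The upstream part held the repeat printed above, with a best shift of 38 bases.

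The long cadherin genes held few peaks. Of the 5 type II cadherins, adhesion proteins of neurons and other cells, 4 had a peak and none had one at its start. *CDH12* held 4 peaks over 1102672 bp with a strongest fold enrichment of 3.83, *CDH18* held 2 over 1104578 bp (3.46), *CDH6* held 2 (2.79) and *CDH10* held 1 (2.69), while *CDH9* had none. Of the Iroquois genes *IRX4* had 1 peak (2.70), and *IRX1* and *IRX2* had none.

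The 4 genes of neuronal adhesion and guidance differed in their number of peaks. *CTNND2*, a delta-catenin of neurons, held 10 peaks over 932611 bp, against 94 in the shorter *SEMA5A*, 24 in *MYO10* and 23 in *BASP1*. Of this list only *MYO10* had a peak at its start (3.18).

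Receptors, complement genes and secreted factors were small lists. Of 5 cytokine and hormone receptor genes, *GHR* (strongest fold enrichment 4.08) and *PRLR* (3.15) had peaks, and *OSMR*, *LIFR* and *IL7R* had none. Of the complement genes *C9* had 2 peaks (3.18), and *C6* and *C7* had none. Of the secreted factors *GDNF* had 1 peak (2.83), and *FGF10* and *EGFLAM* had none. *EGFLAM*, *LIFR* and *OSMR* lay together inside a stretch of 827716 bp without a peak.

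Of 12 mitochondrial and metabolic genes, 11 had a peak and 8 had one at the start. The strongest peaks, at any position in the gene, reached 5.56 at the end of *AMACR*, shared with *SLC45A2*, 4.87 in an intron of *MTRR*, which reactivates methionine synthase, and 4.03 at *MRPS30*, a protein of the mitochondrial ribosome. *NDUFS6* and *MRPL36* shared 1 peak, which lay inside *MRPL36* and within 1000 bp of both starts (2.60). *SDHA*, a subunit of succinate dehydrogenase, had none. Of 11 genes of RNA and translation, 9 had a peak and 8 had one at the start. At the start, the nuclear pore gene *NUP155* had a fold enrichment of 3.47, the ribosomal protein gene *RPL37* 2.83 and the zinc finger gene *ZNF622* 2.73. The strongest peaks of the latter genes lay elsewhere, near the end of *RPL37* (4.13) and 9633 bp after the start of *ZNF622* (3.84), while *SUB1* and *NSUN2* had none. Of 6 transporter genes, 4 had a peak and none had one at the start. *SLC12A7*, a potassium-chloride cotransporter, had 4.11 and *SLC9A3* had 3.42, *SLC6A3*, the dopamine transporter, had 2.56 and *SLC6A19* had 2.50, and *SLC6A18* and *SLC1A3* had none. Both signalling genes, *ADCY2* (3.53) and *AHRR* (3.08), had peaks.

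**Figure D4:**
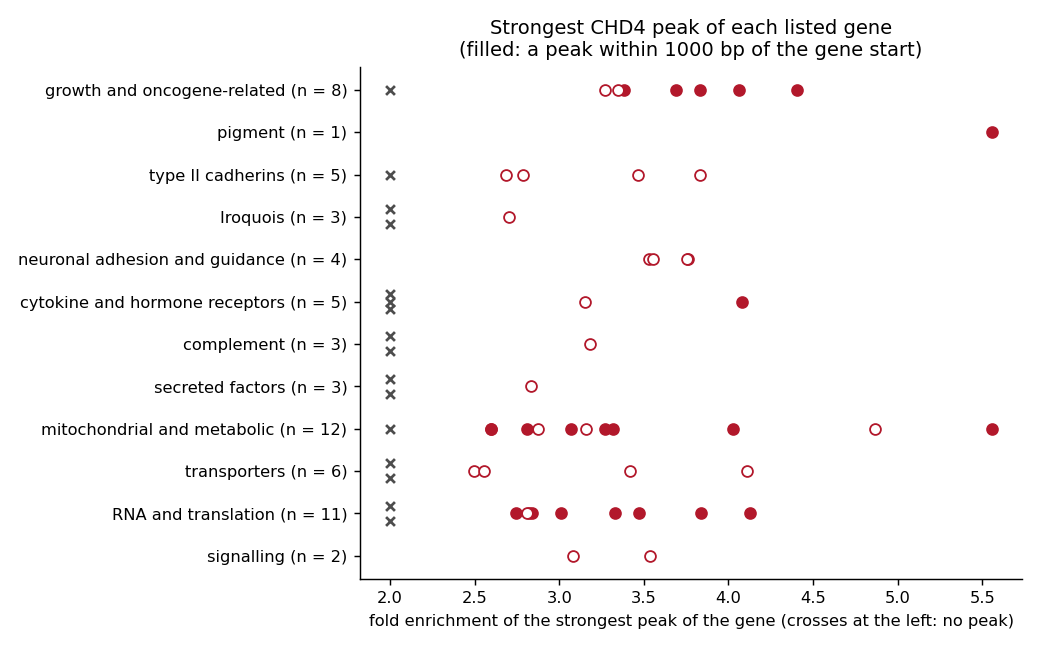
Each circle is 1 gene of 12 lists with a CHD4 peak, at the fold enrichment (ratio) of its strongest peak in the gene or the 2000 bp before its start, filled where a peak lay within 1000 bp of the start. Crosses at the left edge are genes without a peak, placed at an arbitrary position, and the highest circle, 5.56, is the same peak for *SLC45A2* and *AMACR*.

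Most short-arm peaks lay away from gene starts. A peak within 1000 bp of any annotated start was found in 153 cases (16.3%, 14.1 to 18.8), against 17.7% of long-arm peaks and 23.2% of all peaks. The centre of the peak lay in an intron in 61.4% of cases, in an exon in 7.35% and between genes in 31.2%, and on the long arm in 60.7%, 6.95% and 32.3%. Peaks at starts had a median fold enrichment of 2.94 and a median length of 831 bp, and the other peaks 2.79 and 651 bp.

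The strongest peaks of the short arm were of several kinds. The strongest, chr5:983710-984175, reached a fold enrichment of 6.55, with 15.8 as its −log10 q. It lay between protein-coding genes, 4230 bp from the start of the long non-coding gene ENSG00000250173. The *SLC45A2* peak followed with 5.56, and the *MTRR* peak, chr5:7887460-7887622, with 4.87 in intron 8. Next came a peak between protein-coding genes at chr5:944486-945364 (4.46) and the *CLPTM1L* peak at chr5:1332951-1333895 (4.41). The next was in intron 1 of *MARCHF6*, a ubiquitin ligase of the endoplasmic reticulum (4.39). The one after it lay within the annotated span of *DAB2* but outside canonical transcripts (4.36). Then came peaks at the end of *RPL37* (4.13), over exon 17 and intron 16 of *SLC12A7* (4.11) and in intron 3 of *GHR* (4.08).

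A larger share of peaks lay on tandem repeats on the short arm than on the long arm. For windows of 200 bases the share of bases equal to the base a fixed number further on was taken, at its highest over shifts of 2 to 100 bases, and a share of at least 0.6 in the 501 bp at the centre of the peak was called a repeat. This measure was chosen after the sequences had been seen. A repeat was found in 41 short-arm peaks (4.37%, 3.23 to 5.87) and in 25 long-arm peaks (1.14%, 0.776 to 1.68), beside 1.64% of all 501-bp windows of the short arm and 0.857% of those of the long arm. Of the 14 short-arm peaks with a fold enrichment of at least 4, 4 had a repeat, but 3 of these were among the 5 peaks whose sequences had prompted the measure. Without those 5 peaks the counts were 1 of 9 and, over all short-arm peaks, 38 of 934 (4.07%). Of 170 long-arm peaks at this fold enrichment, 4 had a repeat. Of the 74 short-arm peaks of at least 3000 bp, 0 had a repeat at the centre (upper bound 4.93%), and of the 176 peaks of at most 300 bp, 17 did (9.66%). The share was 0.76 at the strongest peak, at a shift of 2 bases. Taken anywhere within the peak it was 0.97 in *CLPTM1L*, at a shift of 99 bases, 0.78 in *GOLPH3*, 0.65 at *SLC45A2* and 0.60 at the fourth strongest peak, and it was 0.365 in *MTRR*. In the peak of 3282 bp at chr5:855510-858791, with a fold enrichment of 4.01, it was 0.825 at a shift of 93 bases. The share at the centre of that peak was 0.565, so that it was not counted. Peaks of at least 3000 bp can thus hold a repeat away from the centre. Only reads with a unique best alignment were kept by the authors, and the part of repeats in the fold enrichment of these peaks was not tested. The median background was 4.37 for short-arm peaks with a repeat and 4.28 for those without.

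**Figure D5:**
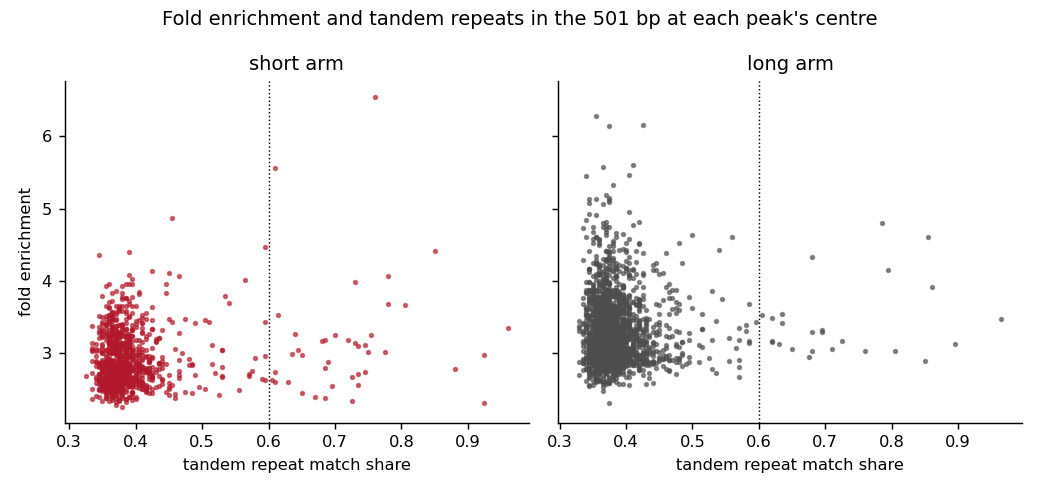
Each point is 1 CHD4 peak of the short arm (left, red) or the long arm (right, grey), with the tandem repeat match share at its centre (x axis, no unit) against its fold enrichment (ratio, y axis). The dotted line marks 0.6, and to its right lie 41 short-arm peaks, among them the 2 strongest, and 25 long-arm peaks.

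Matches to the motif patterns had shares with overlapping intervals on the arms. TGANTCA occurred within 250 bp of the centre of 165 short-arm peaks (17.6%, 15.3 to 20.1), 19.2% of long-arm peaks and 18.1% of all peaks, beside 15.8% of the 501-bp windows of the short arm. TCANGTGA was found in 126 short-arm peaks (13.4%, 11.4 to 15.7), in 12.6% on the long arm and 14.4% of all peaks, beside 11.2% of windows. A 12-letter CTCF consensus was found in 5 short-arm peaks (0.532%, 0.228 to 1.24), against 1.05% on the long arm and 1.49% over the list, beside 0.12% of windows. The median GC content of these regions was 41.3% on the short arm, 41.6% on the long arm and 43.5% over the list, while the short-arm windows had 38.3%. At peaks within 1000 bp of a start, TGANTCA matched 10.5% of short-arm peaks (6.54 to 16.3) and 17.1% of long-arm peaks (13.7 to 21.2). With any base at N, the TGANTCA and TCANGTGA shares include words that need not be sites of AP-1 or MITF. Matches describe the letters of the sequence and not binding.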

How the data were processed

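CHD4 was profiled in 501Mel cells with 1 ChIP and 1 input library. Reads were aligned to hg19 by the authors with Bowtie 1.0.0, those with a unique best alignment were kept, and broad peaks were called with MACS2 2.1.1.20160309, versions being those of the submitters' processing notes. The deposited list gives for each region a score, the fold enrichment (a ratio) and the −log10 p and −log10 q of the authors' peak caller, without read counts. Its control is not stated, and the input was taken as such. The peak-calling settings of the study name a q of 0.01 together with the broad mode, and most peaks of the deposited list do not reach that q. The lowest −log10 q of the list was 1.00, and the cut used for broad regions is not stated. The 27 peaks on chromosome Y and the mitochondrial sequence were left out of comparisons between arms.

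Positions were read on GRCh37, with the genes of GENCODE release 44 as lifted to it. Arms were split at the longest unsequenced run, and an overlap of 1 bp counted. The background estimate assumes the peak caller's standard formula, not stated in the list, and is solved from values averaged over each region. It was run on data simulated with that same formula, which checks the solution and not whether the formula holds for this list. Intervals are Wilson for shares and exact Poisson for densities. The members and the gene lists were chosen with earlier results of these data known. Genes named are those of the 12 lists, those at the 10 peaks of highest fold enrichment and the 5 longest peaks, the 10 protein-coding genes with most peaks, and those at the 3 longest stretches without a peak. Of the original lists, 1 gene is not reported here. Alternatives covered stricter thresholds, joined peaks, other windows and the arm without *SEMA5A*. Python 3.11.15 was used with scipy 1.17.1, pandas 2.3.3, numpy 2.4.6, matplotlib 3.10.9, pysam 0.24.0 and samtools 1.23.1.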

Additional observations from a re-analysis of the deposited data

How the results depend on the processing

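The ratio of peak density between the short and the long arm was 1.22. It fell to 1.07 (0.955 to 1.2) with q values of at most 0.01 and to 0.782 (0.42 to 1.38) at a −log10 q of at least 5, which left 16 short-arm peaks and turned its direction. It was 1.11 without the peaks and bases of *SEMA5A*, an alternative chosen after seeing the data, and 1.55 as bases covered. These thresholds left 428 and 16 of the 939 peaks. With q values of at most 0.01, the median fold enrichment was 3.16, the median background level 4.37, the ratio of peaks per start 1.51 and the share of protein-coding genes with a peak 52.6%. With starts of protein-coding genes alone, the ratio of peaks per start was 2.28 and the share of peaks at starts 10.9%. That share was 31.8% within 5000 bp of a start and 43.8% (23.1 to 66.8) for a −log10 q of at least 5. Counting peaks within 2000 bp of the start alone, 43.5% of genes had one. Over whole peaks, matches to the AP-1 pattern were found in 28.9% and to the M-box pattern in 19.7%. The cause of these shifts was not tested, beyond the wider or narrower region that each alternative counts. The other 15 values moved by less than their counting interval or, for counts, by at most 1.5 times. Among them, the number of strong peaks with a tandem repeat was 6 at a share of at least 0.5 and 3 at 0.7, beside 4 at 0.6. It was 1 without the 5 strongest peaks, whose sequences had prompted the measure. No paired analysis was possible because there was 1 library of each kind. The list carries no read counts, and thus the depth limits what can be said of single peaks to an unknown degree.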

Other observations

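Long non-coding genes of the short arm held CHD4 peaks. Of 284 such genes, 95 had a peak (33.5%) and 56 had one within 1000 bp of the start (19.7%). On the long arm 26.1% of 754 had a peak and 13.5% had one at the start, and over all chromosomes 28.1% and 17.1% of 18702. LINC02223 held 23 peaks with a strongest fold enrichment of 3.65, BASP1-AS1, which overlaps *BASP1*, held 19 (3.55), and ENSG00000248537, within *SEMA5A*, held 14 (3.50). PURPL held 6 peaks (3.10). Peaks of overlapping genes are counted for each gene.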
